A study of Danio rerio with 2 samples.

Results

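The genes described here encode parts of the centriole and the centrosome, as transcribed in the adult zebrafish forebrain choroid plexus. They were chosen by name alone, as symbols that begin with cep, cetn, haus, tubgcp or poc and a number, or with 1 of 13 further centrosome names, and cep290 was left out. The rule took 60 of the 21019 genes in the authors' table, of which 20973 carry a name, out of 25432 genes in the libraries. Every gene in that table had a mean of at least 0.01 TPM, so a gene at 0 in both replicates could not be a member. One of them, NINJ1, was taken only because its symbol starts with the letters of nin, the gene of ninein. It encodes a ninjurin, a membrane protein that is not part of the centrosome, and it stood at 2.94 and 2.06 TPM in replicates 1 and 2.

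RNA was sequenced from 2 pools of 12 to 19 dissected forebrain choroid plexuses each, after the pineal gland had been taken away. The untreated fish, 6 to 8 months old and longer than 3 cm, were AB and nacre (mitfa-/-), a line without functional mitfa. The labels give both genotypes for both pools, so all values mix them. In the titles each pool is a batch, numbered as the replicates are here, so the difference between replicates cannot be told apart from that between batches. The whole tissue was used, so the libraries also hold stroma, vessels and blood cells, and fewer cells of a type cannot be told apart from less RNA per cell.

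A centriole is a short barrel of microtubules. A pair of them, with the pericentriolar material around it, forms the centrosome, which nucleates microtubules and is duplicated once per cell cycle. In a cell with a cilium the older centriole, carrying distal and subdistal appendages, becomes the basal body. Multiciliated cells, such as those that line brain ventricles, leave the cycle and then build many centrioles at once, from the older centrioles and, in mammals, from additional bodies called deuterosomes.

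Levels are in TPM, a share of all transcripts that RSEM corrects for effective transcript length, so that genes can be compared. Replicate 1 held 11712489 expected counts and replicate 2 held 13446356. A gene is called detected where each replicate had 1 TPM or more. For the 15125 genes whose mean was at least 1 TPM, the median log2 ratio of TPM + 1 (replicate 2 over replicate 1) was -0.25, which is subtracted from each centred ratio below. The 9 listed markers of choroid plexus epithelium, such as otx2b (273 and 331 TPM) and clic6 (1426 and 1513 TPM), were all at or above 10 TPM in both replicates. The 12 listed pineal and photoreceptor markers summed to 2386 TPM in replicate 1 and 44.6 TPM in replicate 2, and their median centred log2 ratio was -4.33. Marker lists were drawn up with earlier results of these data known, so they describe the libraries and are no test of tissue identity. With 1 group and 2 replicates no test was possible, and differences are described by their size.

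Centriole and centrosome genes were transcribed broadly and, in TPM, mostly at levels under 10. Of the 60 members, 48 (80.0%) were detected, beside 66.1% of the genes in the authors' table. Only 10 members (16.7%) reached 10 TPM in both replicates, beside 31.9% of the table. Their median mean level was 3.46 TPM, with 4.13 and 2.83 TPM in replicates 1 and 2. That lies below the median of the table, 4.88 TPM, and above that of all 25432 genes of the libraries, 2.525 TPM. Summed, they made up 546 TPM in replicate 1 and 365 TPM in replicate 2. None reached 100 TPM in either replicate. The order of the members was alike in both replicates, with a Spearman correlation of 0.97 across the 60 genes, which share both libraries.

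**Figure D1:**
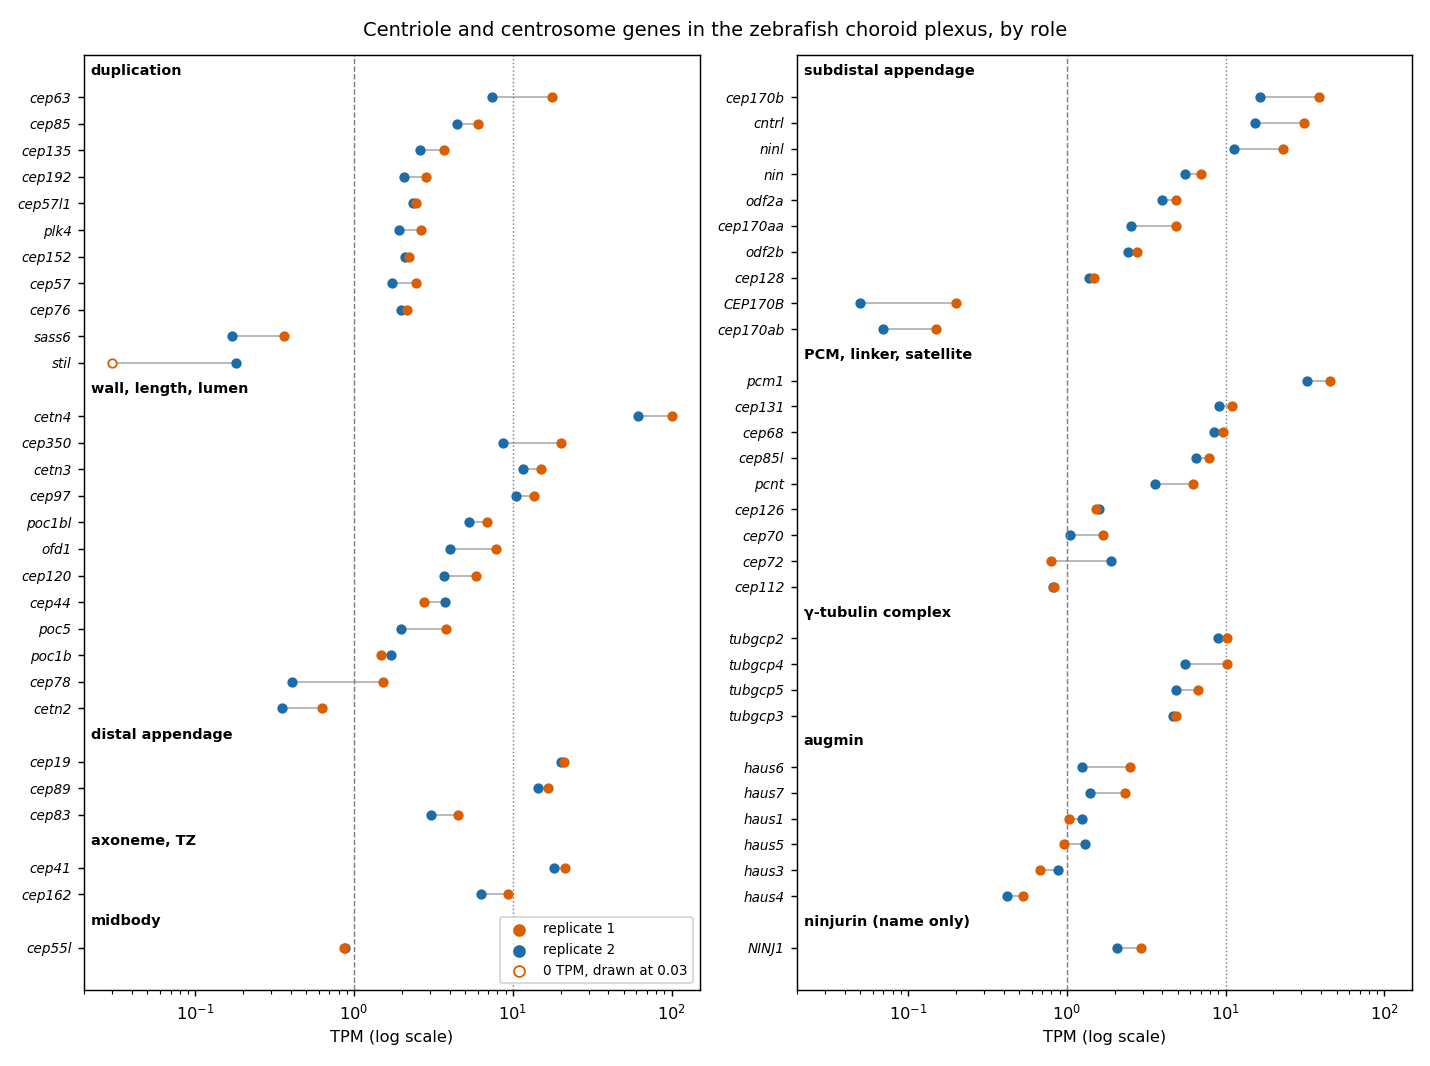
TPM on a log axis for 59 of the 60 members, with replicate 1 in orange and replicate 2 in blue, grouped by role and joined by a line. The dashed line is at 1 TPM and the dotted line at 10 TPM, PCM is pericentriolar material and TZ is transition zone. cetn4 lies furthest right, while sass6, stil, CEP170B and cep170ab lie well to the left of 1 TPM.

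Among the genes that start centriole duplication, the assembly kinase and its scaffolds were detected, and the cartwheel genes sass6 and stil were close to 0. Of these 11 members, 9 were detected and none reached 10 TPM in both replicates. The kinase gene plk4, whose product sets the number of new centrioles, was at 2.66 and 1.91 TPM, from 72 and 65 expected counts. Its receptors on the centriole wall, cep152 and cep192, had levels of 2.23 and 2.10 TPM and of 2.83 and 2.05 TPM, respectively. These levels lay close to each other, and the ranges of plk4 and both receptors overlap.

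The gene cep63 encodes the partner of Cep152 in the ring around the centriole. It had the highest mean TPM of the group, at 17.6 and 7.35 TPM, and both of its values lay above those of every other member of the group. In expected counts (170 and 85) it lay below cep192 (187 and 182) and cep85 (184 and 184), whose transcripts are longer. Next after cep63 by mean TPM were cep85, whose human product binds STIL, at 6.06 and 4.43 TPM, and cep135, whose product joins the cartwheel to the wall, at 3.71 and 2.59 TPM. The remaining scaffold genes cep57, cep57l1 and cep76 had means between 2.07 and 2.40 TPM, and cep76 restrains repeated duplication in human cells.

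The protein of sass6 builds the 9-fold symmetric hub of the cartwheel, and that of stil links it to Plk4. The level of sass6 was 0.36 and 0.17 TPM, from 10 and 6 expected counts. Its exact 95% Poisson intervals ran from 4.80 to 18.4 counts in replicate 1 and from 2.20 to 13.1 in replicate 2. stil had no count in replicate 1, where 3 counts would equal 0.0754 TPM, and 8 counts or 0.18 TPM in replicate 2. Both genes therefore lay below every detected member of the group in both replicates. Reads carried no known molecular identifiers, so these and later intervals cover counting error only.

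Dividing cells express sass6 and stil around centriole duplication. The part of cell division in the levels of these 2 genes was not tested. Of 12 listed markers of division 7 were detected, beside 66.1% of the genes in the authors' table. Their median mean level was 1.47 TPM, beside 4.88 TPM for the table. The proliferation antigen gene mki67 was at 0.88 TPM in both replicates, the mitotic kinase gene aurka at 0.08 and 0 TPM from 1 and 0 expected counts, and ttk at 0.42 and 0.40 TPM. The replication clamp gene pcna, also used in DNA repair, was highest at 94.1 and 72.0 TPM. The 2 next highest markers, cdk1 and plk1, had means of 6.15 and 3.17 TPM.

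The centriole wall, length and lumen group held the most abundant member. Of its 12 genes 10 were detected and 3 reached 10 TPM in both replicates. Centrins are small calcium-binding proteins of the distal centriole lumen, and in mice the gene of centrin 4 is known from ciliated cells. In this tissue cetn4 was at 99.8 and 61.3 TPM (mean 80.5 ± 27.2, SD, n = 2), above every other member in both replicates. It ranked 1110 among all 25432 genes by mean TPM. Alone it held 18.3% and 16.8% of the summed TPM of the 60 members.

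The level of cetn4 rests on 226 and 168 expected counts over an effective length of 254 and 244 bases, the shortest of the members. TPM of so short a transcript depends strongly on that estimate. Without regard to length, as CPM (counts scaled to the library total), it stood at 19.3 and 12.5 and ranked 15 of 60, while pcm1 ranked 1.

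The 3 centrin genes differed widely. cetn3 was at 15.0 and 11.6 TPM and cetn2 at 0.63 and 0.35 TPM, so cetn4 was 6.65 and 5.28 times as high as cetn3 in replicates 1 and 2. On TPM these ratios are far larger than the 1.63-fold spread of cetn4 itself between replicates. In CPM, without regard to length, the gap was smaller, with cetn4 at 19.3 and 12.5 and cetn3 at 7.63 and 5.91. cetn2, whose human protein also takes part in DNA repair, was not detected at the level set here, with 10 and 7 expected counts. cetn3 was the 1 member whose expected counts were not whole (89.4 and 79.5), so RSEM shared some of its reads with another entry.

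Next in the group by mean TPM was cep350. This gene, whose large product anchors microtubules and stabilises centrioles, was at 20.2 and 8.64 TPM. cep97, which encodes part of the cap that keeps a centriole from growing a cilium, was at 13.5 and 10.5 TPM. Its partner in the cap, ccp110, matched no gene by name. The distal end regulator ofd1 was at 7.79 and 4.02 TPM, and the elongation factor gene cep120 at 5.85 and 3.68 TPM.

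The inner scaffold gene poc5 was at 3.77 and 1.98 TPM. Of the related WD40 repeat genes, poc1bl (6.86 and 5.33 TPM) stood above poc1b (1.48 and 1.72 TPM) in both replicates, by 4.64 and 3.10 times. cep44, which encodes a wall protein, was at 2.74 and 3.73 TPM. It is 1 of 9 among the 60 members with a higher TPM in replicate 2, beside 6480 of the 21019 genes in the authors' table. cep78 was at 1.53 and 0.41 TPM, from 28 and 8 expected counts, and so was detected in replicate 1 alone.

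Distal appendages tether the basal body to the cell membrane, and all 3 members grouped with them here were detected. cep19, whose product on the mother centriole brings in intraflagellar transport through a small GTPase in mammals, was at 21.0 and 20.2 TPM (mean 20.6 ± 0.615, SD, n = 2). cep89 was at 16.7 and 14.4 TPM, below cep19 in both replicates. cep83, which encodes the innermost of these proteins, was at 4.49 and 3.06 TPM.

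Subdistal appendages, the basal feet of multiciliated cells, anchor microtubules and were represented by 10 members. Of these 8 were detected and 3 reached 10 TPM in both replicates. The latter were cep170b at 38.6 and 16.4 TPM, the centriolin gene cntrl at 31.3 and 15.2 TPM, and the ninein-like gene ninl at 23.0 and 11.3 TPM. All 3 were about 2-fold lower in replicate 2. Within each replicate their order was the same, although their ranges across the replicates overlap. The summed TPM of this group was 114 in replicate 1 and 58.9 in replicate 2. That of the distal appendage group was 42.2 and 37.6.

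The other subdistal members were lower in both replicates. The ninein gene nin was at 7.03 and 5.54 TPM. Of the copies of the appendage scaffold odf2, odf2a (4.90 and 4.00 TPM) stood above odf2b (2.76 and 2.42 TPM), by 1.78 and 1.65 times. cep128, whose product joins Odf2 at the appendage base, was at 1.49 and 1.38 TPM. The Cep170 family differed more widely, from a high copy, cep170b, to copies near 0. cep170aa was at 4.84 and 2.52 TPM, its copy cep170ab at 0.15 and 0.07 TPM from 5 and 1 expected counts, and a second entry named CEP170B at 0.20 and 0.05 TPM from 10 and 3. Reads shared by copies of a family could be split between entries, although the expected counts of these genes were whole numbers.

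Centriolar satellites are granules that carry proteins to the centrosome and basal bodies, and their scaffold gene pcm1 was the second most abundant member. It was at 45.4 and 32.3 TPM (mean 38.9 ± 9.29, SD, n = 2), from 2657 and 2380 expected counts, the largest number of any member. Of the 9 genes for pericentriolar material, linker and satellites, 7 were detected. The satellite gene cep131 was at 11.04 and 9.04 TPM. The linker gene cep68, which helps to hold the pair of centrioles together, was at 9.65 and 8.44 TPM.

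The pericentrin gene pcnt, a scaffold of the pericentriolar material, was lower than both in each replicate, at 6.27 and 3.61 TPM. It has the longest transcript of the members, and its 725 and 524 expected counts were the fourth highest mean CPM. The satellite gene cep72 went the other way from most members, at 0.79 and 1.90 TPM from 11 and 33 expected counts. cep85l, a relative of cep85, was at 7.86 and 6.55 TPM. The remaining genes were also low, with means of 1.56 TPM for cep126, 1.37 TPM for cep70 and 0.825 TPM for cep112.

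Microtubule nucleation genes separated into 2 levels. The tubgcp genes encode subunits of the gamma-tubulin ring that seeds microtubules, and all 4 were detected. tubgcp2 and tubgcp3, the subunits that pair with gamma-tubulin in the small complex, were at 10.2 and 8.95 TPM and at 4.86 and 4.63 TPM. The ring subunit genes tubgcp4 and tubgcp5 were at 10.2 and 5.53 TPM and at 6.74 and 4.85 TPM. The ranges of tubgcp2 and tubgcp4 overlap, and both tubgcp2 values lie above those of tubgcp3.

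Augmin is the complex that brings this ring to existing spindle microtubules, and its genes were low. Of 6 members 3 were detected, and the group's median mean level was 1.14 TPM, beside 6.82 TPM for the tubgcp genes. The highest, haus6 and haus7, were at 2.50 and 1.24 TPM and at 2.34 and 1.39 TPM. haus1 was at 1.03 and 1.24 TPM from 7 and 10 expected counts, and haus5 at 0.96 and 1.31 TPM. haus3 (0.68 and 0.88 TPM) and haus4 (0.53 and 0.42 TPM) were under 1 TPM in both replicates. No value of an augmin gene reached the lowest value of a tubgcp gene in either replicate. The midbody gene cep55l, related to the gene of an abscission factor, was also low at 0.87 and 0.88 TPM.

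Of members with roles in the axoneme and the transition zone, cep41 and cep162 were detected. cep41, required for glutamylation of ciliary tubulin, was at 21.4 and 18.1 TPM (mean 19.8 ± 2.33, SD, n = 2), and its range overlaps that of cep19. cep162, which links the axoneme to the transition zone, was at 9.31 and 6.32 TPM. Both lay above every detected duplication gene other than cep63 in replicate 1, and in replicate 2 these genes and cep63 were the only ones of both groups above 5 TPM.

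In the reference table of gene symbols, 8 further genes carry a name that fits the rule. Of these, 5 have another name in the authors' table and 3 are not in it, so all fell outside the rule. The gene cep43 (named fgfr1op), whose product works with Cep350, was at 43.9 and 40.8 TPM. By mean this is above every member other than cetn4. CEP15 (named C11H3orf14) was at 38.2 and 22.5 TPM and CEP20 (named fopnl), a satellite and centriole gene related to cep43, at 12.2 and 8.04 TPM. The augmin genes haus2 and haus8 were at 1.41 and 1.01 TPM and at 2.68 and 1.04 TPM. The value of haus8 in replicate 1 lies just above that of haus6, the highest augmin member. The 3 genes outside the authors' table, POC1A, cntrob and NINJ2, were listed at 0 in both replicates.

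Other genes of these structures that the name rule does not take were read from separate lists. Of 9 genes for pericentriolar material and the gamma-tubulin ring 7 were detected and 5 reached 10 TPM in both replicates, with a median of 15.5 TPM. Gamma-tubulin itself, tubg1, was at 15.03 and 16.03 TPM, the anchoring protein gene akap9 at 42.6 and 18.3 TPM, and the microtubule polymerase gene ckap5 at 27.6 and 24.8 TPM. The spindle pole gene aspm was near 0, at 0.08 and 0.03 TPM. Of 6 genes for subdistal appendages and basal feet 5 were detected, and the microtubule end-binding gene mapre1b was highest at 82.3 and 83.9 TPM.

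Satellite genes outside the rule were all 11 at or above 1 TPM in replicate 1 and 10 of 11 in both, with a median of 9.22 TPM. They were led by the ubiquitin ligase gene mib1 at 54.8 and 44.1 TPM, followed by ssx2ipb at 28.4 and 13.0 TPM and ssx2ipa at 18.8 and 15.4 TPM. Of 4 linker and rootlet genes all were detected, and the rootletin family gene crocc2 was at 23.1 and 18.2 TPM. The 3 distal appendage genes that matched, sclt1, ttbk2a and ttbk2b, had means between 4.38 and 8.27 TPM.

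Of 15 entries for other centriole assembly genes 12 were detected, with a median of 2.79 TPM, close to that of the duplication members at 2.29 TPM. The highest were cby1, which encodes a protein of the distal basal body, at 20.0 and 12.8 TPM, and the wall protein gene fam161a at 15.6 and 10.0 TPM. The centriole length gene cenpj was at 0.77 and 0.96 TPM, under 1 TPM in both replicates like sass6 and stil.

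Genes that drive the making of many centrioles were at uneven levels. Of 8 matched genes 6 were detected, with a median of 5.13 TPM. The others, mcidas at 2.04 and 0.85 TPM and myb at 1.21 and 0.94 TPM, reached 1 TPM in replicate 1 alone. The regulator gmnc, which starts the multiciliated programme, was at 16.4 and 41.2 TPM, with a centred log2 ratio of 1.53. Its partner e2f5 was at 21.2 and 16.6 TPM, and ccdc78, named as a deuterosome-associated gene in mammals and frogs, at 6.23 and 8.29 TPM. The symbols deup1, ccno and cdc20b matched no gene by name. Of the 8 genes, 5 had a centred ratio above 0 and 3 below, with e2f5 at -0.08, beside 7562 above 0 among all 15125 genes. On plain TPM 5 of the 8 were lower in replicate 2 and 3 higher, so no direction is read from these counts. gmnc was the only 1 at 2-fold or more, beside 3.56% of all genes higher in replicate 2. The duplication genes plk4, cep152 and cep63 had centred log2 ratios of -0.08, 0.19 and -0.90.

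**Figure D2:**
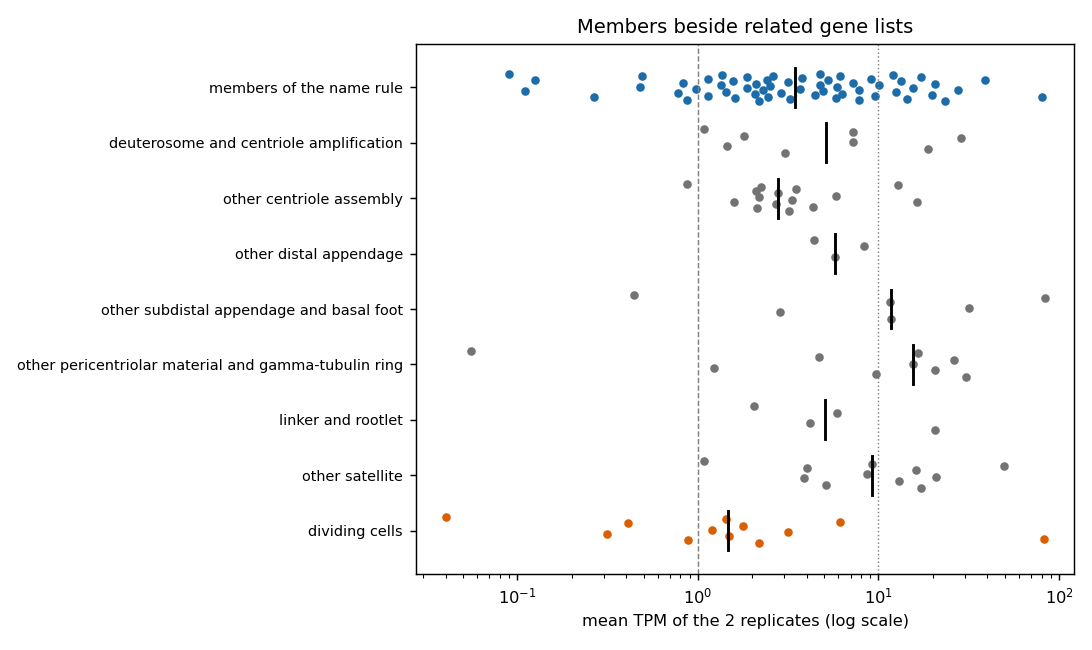
Mean TPM of the 2 replicates on a log axis for 59 of the 60 members (blue), of related lists (grey) and of dividing cell markers (orange), with a black bar at each median. The dashed and dotted lines are at 1 and 10 TPM. The medians run from 1.47 TPM for dividing cell markers to 15.5 TPM for other genes of the pericentriolar material and gamma-tubulin ring, and that of the members is 3.46 TPM.

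Between replicates the median member lay near the median gene on the scale of log2(TPM + 1). The summed TPM of the members was 546 in replicate 1 and 365 in replicate 2. Of 50 members with a mean of at least 1 TPM, 44 (88.0%) had a lower TPM in replicate 2, beside 72.0% of all genes with that mean. After centring, their median log2 ratio was -0.09, and ratios ran from -0.93 for cep170b to 0.95 for cep72. No member was 2-fold or more from the median gene in either direction, beside 5.22% of all genes higher in replicate 1 and 3.56% higher in replicate 2. Shares that small amount to few genes among 50, so the lack of calls is not read as a trait of the members. On plain TPM, without the pseudocount and centring, 6 of the 50 were at least 2-fold higher in replicate 1, beside 13.9% of all genes. In replicate 2, 1 of the 50 (cep72) was at least 2-fold higher, beside 3.38% of all genes.

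**Figure D3:**
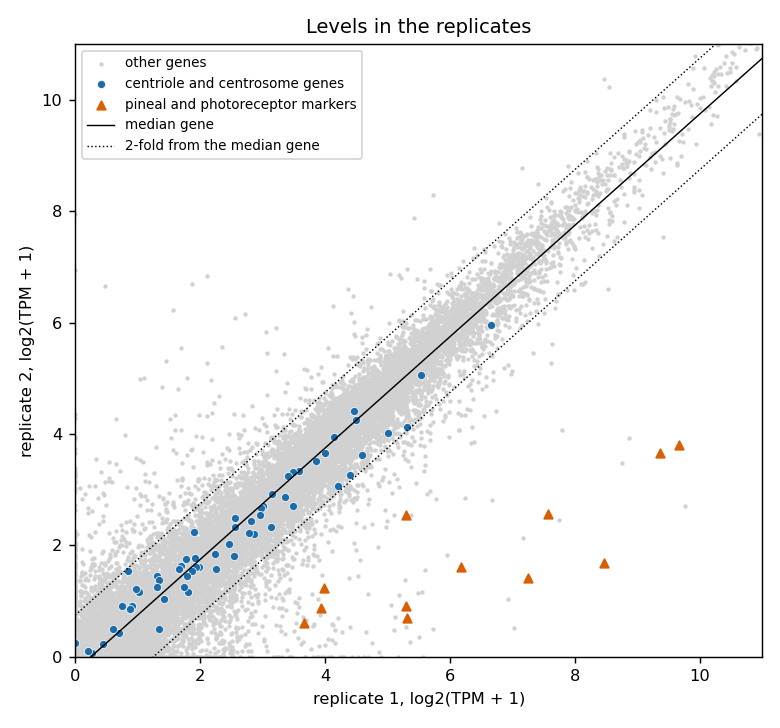
Each gene's log2(TPM + 1) in replicate 1 (horizontal) and replicate 2 (vertical), with 59 of the 60 members in blue, 12 pineal and photoreceptor markers as orange triangles and other genes in grey. Both axes end at 11. The solid line is the median gene and the dotted lines lie 2-fold from it. The members with a mean of at least 1 TPM lie between the dotted lines and the pineal markers lie far below them.

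The members with the lowest centred ratios were cep170b (-0.93), cep63 (-0.90), cep350 (-0.88), cntrl (-0.74) and ninl (-0.72). The plain TPM of cep170b was 2.35 times as high in replicate 1, with a 95% counting interval of 2.16 to 2.56. That of cep350 was 2.34 times as high, with an interval of 2.16 to 2.54, and that of cep63 2.39 times, with an interval of 1.83 to 3.14. The intervals of cntrl and ninl began at 1.82. None of these 5 intervals on plain TPM reached 1.19, which is the median gene's fold on TPM + 1. The 5 genes were picked from the same counts as the lowest ratios of 50, so this is a description and not a test. At the other end, cep72 was 2.41 times as high in replicate 2, with a wide interval of 1.19 to 5.28.

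The pineal and photoreceptor markers and most neuron markers were also higher in replicate 1. All 12 pineal markers were at least 2-fold higher in replicate 1, and the 13 neuron markers summed to 102 TPM in replicate 1 and 48.0 TPM in replicate 2. Of 9 neuron markers with a mean of at least 1 TPM, 8 had a centred ratio below 0. The other, map2, was at 29.4 and 31.8 TPM, and without it, a choice made after its values were seen, the neuron markers summed to 72.2 and 16.2 TPM. In replicate 2 all 12 pineal markers had reads, and rcvrna was lowest in expected counts at 4. Their part in the ratios of the members was not tested.

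Transcript length went with the ratio to a small degree. The Spearman correlation of the centred ratio with effective length was -0.25 across 50 members and -0.12 across all 15125 genes, as a description over genes that share both libraries. With mean TPM it was larger across the members, at -0.47, and of the other sign across all genes, at 0.15. The part of level in the ratios was not tested. Of 19 members with an effective length of at least 3000 bases, 14 had a centred ratio below 0, or 73.7%, beside 60.1% of all genes of that length. Of 31 shorter members 17 did, or 54.8%, beside 47.0% of shorter genes. The 5 members with the lowest ratios had effective lengths between 1056 and 9832 bases, and the part of length in their ratios was not tested.

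By role, the median centred log2 ratio was lowest for subdistal appendage genes, at -0.26 over 8 genes. It was 0.05 for the 3 distal appendage genes, 0.01 over 8 genes of the pericentriolar material, linker and satellites, -0.03 over 4 tubgcp genes and 0.08 over 4 augmin genes. The 9 duplication genes had a median of -0.08 and the 10 genes of wall, length and lumen one of -0.19. Among related lists, the median was -0.48 for 11 other satellite genes, -0.37 for other centriole assembly and -0.13 for linker and rootlet genes. It was 0.03 for other genes of the pericentriolar material and gamma-tubulin ring and 0.11 for centriole amplification. All 11 satellite genes had a centred ratio below 0, beside 50.0% of all genes, as centring on the median sets. These groups differ in level, and the added 1 TPM shifts the centred ratios of low genes. On plain TPM plk4 and pcm1 were 1.39 and 1.41 times as high in replicate 1, yet their centred ratios were -0.08 and -0.23. The part of level in these medians was not tested.

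**Figure D4:**
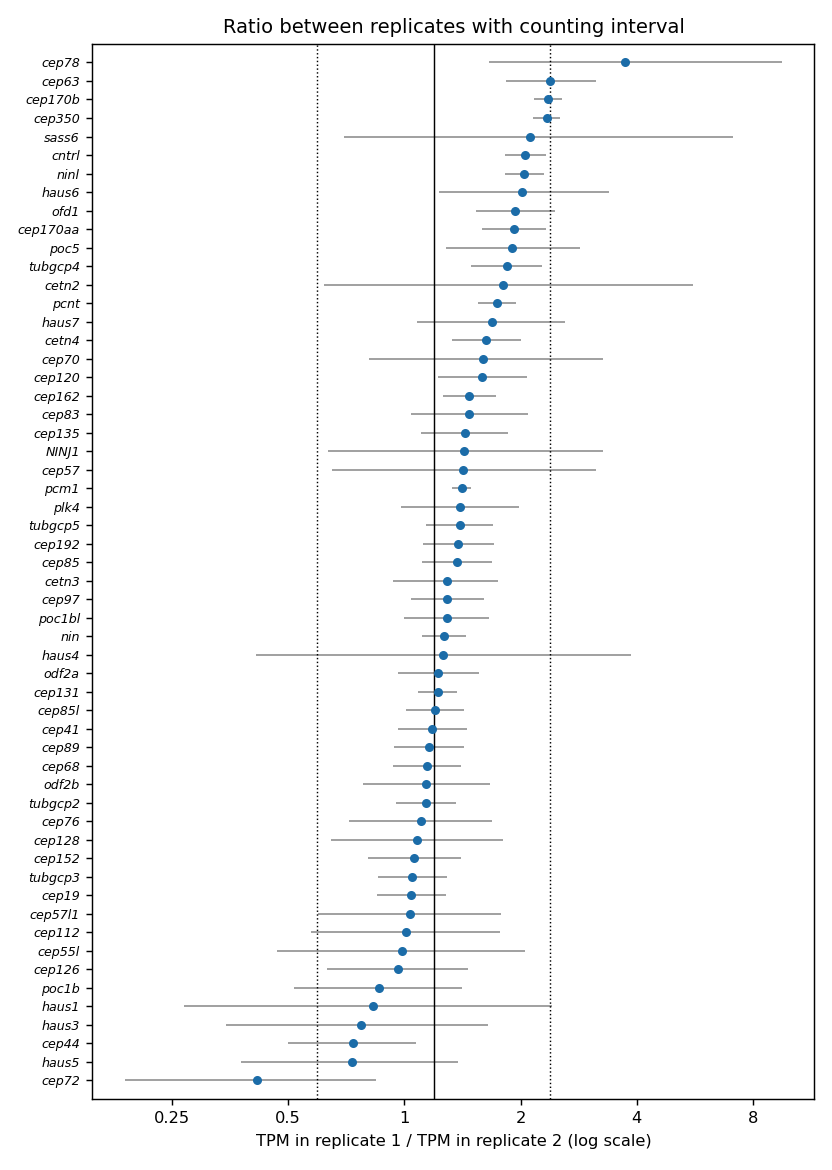
TPM in replicate 1 divided by TPM in replicate 2, on a log axis, for members with at least 5 expected counts in both replicates, with the 95% interval from counting error as a bar. The solid line is at 1.19-fold, the median gene's fold on TPM + 1, and the dotted lines lie 2-fold from it. The members' own folds are on plain TPM, without a pseudocount. cep170b and cep350 have narrow bars near 2.35 and 2.34, while low genes such as cep72 and cep78 have wide ones.

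The mean transcript lengths behind the levels also differed between libraries. Of the 60 members 40 have more than 1 transcript listed, and for 13 the mean transcript length given by RSEM differed by at least 10% between replicates. The share of all genes with such a difference was not computed. For haus7 it was 2083 and 3539 bases, with 38 and 51 expected counts, so that its TPM was lower in replicate 2 although its counts were higher. For cep85l the mean length was 3522 and 4797 bases with 229 and 333 expected counts. For cep19 it was 1114 and 1301 bases with 160 and 233 expected counts. The near-equal TPM of cep19 in the replicates rests on that difference, as its CPM in replicate 1 was 0.788 times that in replicate 2.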

How the data were processed

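The submitters' processing notes name STAR, RSEM 1.3.3 and build GRCz11, and neither the annotation nor the strand setting is given in the sources used here. For each library the authors deposited RSEM's expected counts, TPM and FPKM per gene, per the file headers, and FPKM was left aside. The authors' table of the series holds their mean TPM, within 0.005 of the mean of both libraries, and supplied the gene names.

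Members were found by a pattern on those names, ignoring case. The members, roles and lists were chosen with earlier results of these data known. Counts and medians cover all 60 members, and 1 of them is not reported here by itself. Every other member could be named, of the other lists the top 3 genes and those under 1 TPM in both replicates. Other genes named from the lists (otx2b, tubg1, rcvrna, mcidas and myb) were chosen after their values were seen.

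Centred ratios are log2(TPM + 1), replicate 2 over replicate 1, less the median of genes whose mean TPM was at least 1. This scale understates differences of low genes and, after centring, moves their ratios toward 0.25. SD is over n = 2. The labels call the pools separate batches and say no more of how they differed. Intervals are exact 95% Poisson or binomial ones on rounded expected counts. TMM scaling used edgeR 4.0.16. The ratio calculation was run on simulated data, with changes larger than those of most members and none set in genes of low level. That run says nothing of small differences or of low members. A count of 3 equals 0.256 and 0.223 CPM in replicates 1 and 2. Alternatives are given in the closing section.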

Additional observations from a re-analysis of the deposited data

How the results depend on the processing

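No paired analysis was possible because there is 1 group of 2 libraries. With CPM in place of TPM, 24 members reached 10 in both replicates and the median level was 8.9996 CPM. The share of all genes at 10 CPM was not computed. By mean CPM the middle members, cep120 and cep152, ranked 9198 and 9635 among all 25432 genes. By mean TPM the middle members, cep170aa and cep44, ranked 11518 and 11922. Both pairs of ranks lie above the median of all 25432 genes. A median below that of other genes is therefore stated for TPM only, and only beside the authors' table. In CPM the members made up 0.106% of the total in place of 0.0456%, and 1 member (cep350) was at least 2-fold higher in replicate 1, beside 5.22% of all genes. That gene was also the 1 called with TMM-scaled CPM, beside 5.38%. Without centring 3 members (cep63, cep350 and cep170b) were, beside 9.04% of all genes, and the median log2 ratio was -0.34. With a pseudocount of 0.1, 1 member (cep72) was at least 2-fold higher in replicate 2, beside 5.01% of all genes. Among members whose mean reached 1 TPM the median level was 4.85 TPM. From 1 replicate alone, 49 to 50 members were detected, 10 to 15 reached 10 TPM, the median was 2.83 to 4.13 TPM and the share 0.0365% to 0.0546%. Ratios between replicates cannot be had from 1 replicate. The number detected stayed between 37 (at 2 TPM) and 53 (at 0.5 TPM), and with 5 reference-named genes added, a choice made after seeing the data, it was also 53. Of 59 mean levels, 51 moved with CPM by more than their SD. Low counts limit the lowest members: 15 had fewer than 20 expected counts in at least 1 replicate.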
